A study of Homo sapiens with 15 samples.

Results

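The genes described here encode the proteins that build the cornified envelope of squamous epithelium, together with the S100 genes that share its chromosomal neighbourhood. The members were a fixed list of 40 genes, found on the arrays through the RefSeq accession of each probe, out of 19483 genes so matched. They were measured by 48 probes, of the 42405 non-control probes on the array. The list held 10 SPRR genes (13 probes), 12 S100 genes (14 probes) and 18 other envelope genes (21 probes). The cells were PE/CA-PJ41, a human oral squamous carcinoma line. Cells labelled CYGB+ were stably transfected with human cytoglobin cDNA in the plasmid pCMV6-Neo, in which a cytomegalovirus promoter drives the insert. The study's methods name a single clone, LST421, as their source. Cells labelled NCE, for non-cytoglobin expressing, carried an empty vector per the labels, while some of the study's legends call its controls un-transfected parent cells. Stable clones were picked in G418 sulfate, and cells of both groups stood for 24 h in supplemented medium before RNA extraction. Each group had 3 biological replicates, with RNA extracted on separate occasions, hybridised to 3 arrays each for NCE (9 arrays) and to 2 arrays each for CYGB+ (6 arrays). A single clone was set against the control, so differences between clones and effects of cytoglobin cannot be told apart here.

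The cornified envelope is a protein shell laid down beneath the plasma membrane of keratinocytes as they finish differentiating. Transglutaminases cross-link involucrin, small proline-rich (SPRR) proteins and other precursors onto a scaffold that contains envoplakin and periplakin. Many of the precursor genes, the SPRR genes and most S100 genes lie next to each other on chromosome 1, in the epidermal differentiation complex, and 28 of the 40 members mapped to that chromosome. S100 proteins are small calcium-binding proteins, several of which are abundant in keratinocytes. In lining epithelia of the mouth, SPRR proteins are among the typical products of suprabasal cells.

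Values are log2 green-channel signals after quantile normalisation over the 15 arrays, averaged per biological replicate. They can be compared between groups for one probe but not between probes. A log2 difference is CYGB+ minus NCE, given with its standard error (SE) from limma, and adjusted p-values are Benjamini-Hochberg values over all 22328 probes tested. A probe was tested if it was well above background on at least 6 of the 15 arrays, and was called at an adjusted p under 0.05. Over all tested probes 8.29% were called, 4.24% higher and 4.05% lower in CYGB+, and the median difference was -0.02.

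The targeted gene, CYGB, did not separate the groups. The single CYGB probe read 12.87, 13.16 and 12.94 in the NCE replicates and 12.37, 13.45 and 13.00 in the CYGB+ replicates, a difference of -0.05 ± 0.28 (SE; adjusted p = 0.93, limma). It was above background on all 15 arrays. Which part of the transcript the probe matches was not known here. Every direction below therefore rests on the labels of the arrays, and the groups are the cells labelled CYGB+ and those labelled NCE. All 8 squamous epithelial markers tested, among them KRT5, KRT14 and TP63, were above background on all 15 arrays. Of these only the keratin KRT16 was called (-0.75 ± 0.15 SE, adjusted p = 0.031). The collagen gene COL1A2 was also called, at -2.54 ± 0.22 (SE; adjusted p = 0.002), as 1 of 4 tested of the 8 fibroblast and mesenchymal markers. The summed signal of those 8 markers lay between 11325 and 17213 in the NCE replicates and between 6865 and 10815 in the CYGB+ replicates. COL3A1, LUM and PDGFRB were not above background on any array. Of 5 leukocyte markers and 3 endothelial markers, 1 each was tested (CD14 and CDH5), and neither was called. Their summed signals were 388 to 616 and 61.3 to 88.1 in NCE, against 321 to 553 and 55.4 to 80.8 in CYGB+. The part of these markers in the results below was not tested.

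The arrays lay on 2 slides, 8 NCE arrays on the first and 1 NCE array with all 6 CYGB+ arrays on the second. Values with slide as a block, and within the second slide, therefore stand beside the main results. The within-slide comparison has 1 NCE array, the third repeat of NCE replicate 1. Values of both slide settings therefore depend on that replicate. One array, the first repeat of CYGB+ replicate 1, stood apart, with a median correlation with its own group of 0.918 against 0.962 to 0.988 for the others. Results are also given with that replicate taken from its other array alone, an alternative chosen after seeing the data. NCE and CYGB+ replicates of the same number deviated together, but so did some pairs of different number. Whether the numbers pair the samples is therefore uncertain. The fit with the replicate number as a block is given where it changes a call.

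Of the 40 genes, 27 were measured well enough to test, through 31 probes, and 25 were above background on all 15 arrays. The tested genes were 9 envelope, 7 SPRR and 11 S100 genes. For 8 genes no array was above background. These were the filaggrin-like FLG2 and repetin (RPTN), cornulin (CRNN), the transglutaminases TGM3 and TGM5, and SPRR2B, SPRR2G and SPRR4. Another 5 genes were above background on only 1 or 2 arrays, namely filaggrin (FLG), hornerin (HRNR), trichohyalin (TCHH), the caspase CASP14 and S100A1. The late proteins of the granular layer, filaggrin and its relatives, thus gave no level that could be compared, and a difference in them was not detectable. Of the 31 tested probes 5 were called (16.1%), 4 higher and 1 lower in CYGB+, beside the 8.29% called over all probes. All 4 higher probes were SPRR probes, and the lower one measured TGM1. With 1 probe per gene, the brightest, 3 of 27 genes were called. Because a gene's probes disagreed for SPRR1A and SPRR2D, the count was 5 of 27 when any probe of the gene was allowed.

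**Figure D1:**
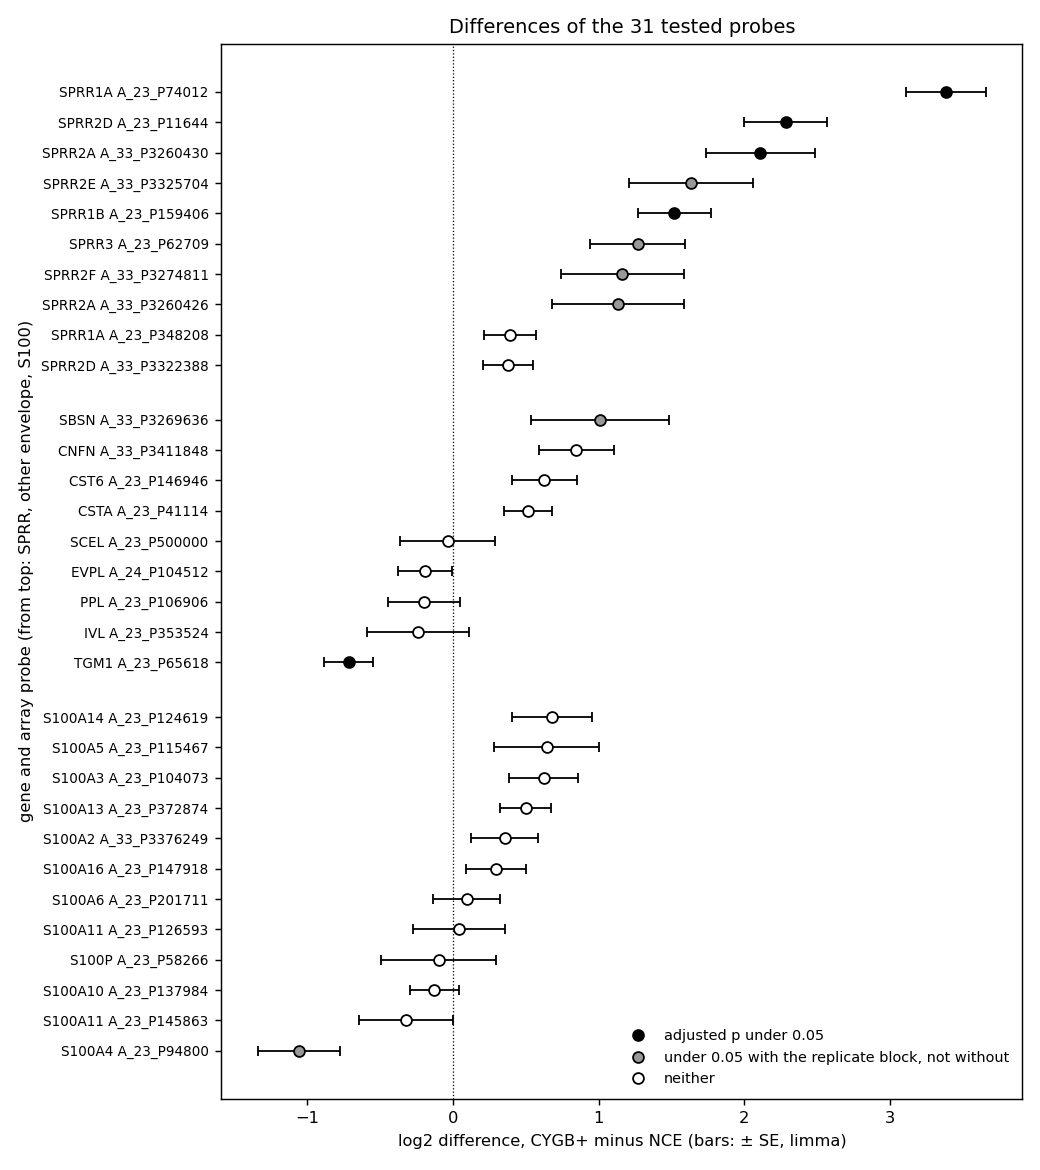
Log2 difference of each of the 31 tested member probes, CYGB+ minus NCE, on the horizontal axis, with bars for the SE, grouped from the top as SPRR, other envelope and S100 probes. Black points passed an adjusted p of 0.05, grey points passed it with the replicate block but not in the comparison without it; all 10 SPRR points lie to the right of 0, from 0.38 to 3.39.

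SPRR proteins are short proline-rich envelope precursors that serve as cross-bridges between the larger components. All 10 tested SPRR probes were higher in the cells labelled CYGB+, by 0.38 to 3.39 on the log2 scale with a median of 1.39. Of these, 4 were called, in SPRR1A, SPRR1B, SPRR2A and SPRR2D, a share of 40% beside the 4.24% of all probes called higher. One of these 4, in SPRR1A, passed the filter on dim probes only through the CYGB+ arrays, where it was high. Among the 9 SPRR probes above background in both groups 3 were called, and the median was 1.27. The other 21 tested member probes had a median difference of 0.09, and 12 of them were above 0. All 10 SPRR differences stayed above 0 with 75th percentile scaling, with normexp background correction, with slide as a block and within the second slide. With slide as a block the 4 called SPRR probes passed, beside 2.95% of all probes. The transcripts of the SPRR2 genes are nearly identical in places, so a probe of one may also have taken up transcript of another, and values for single SPRR2 genes are uncertain.

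**Figure D2:**
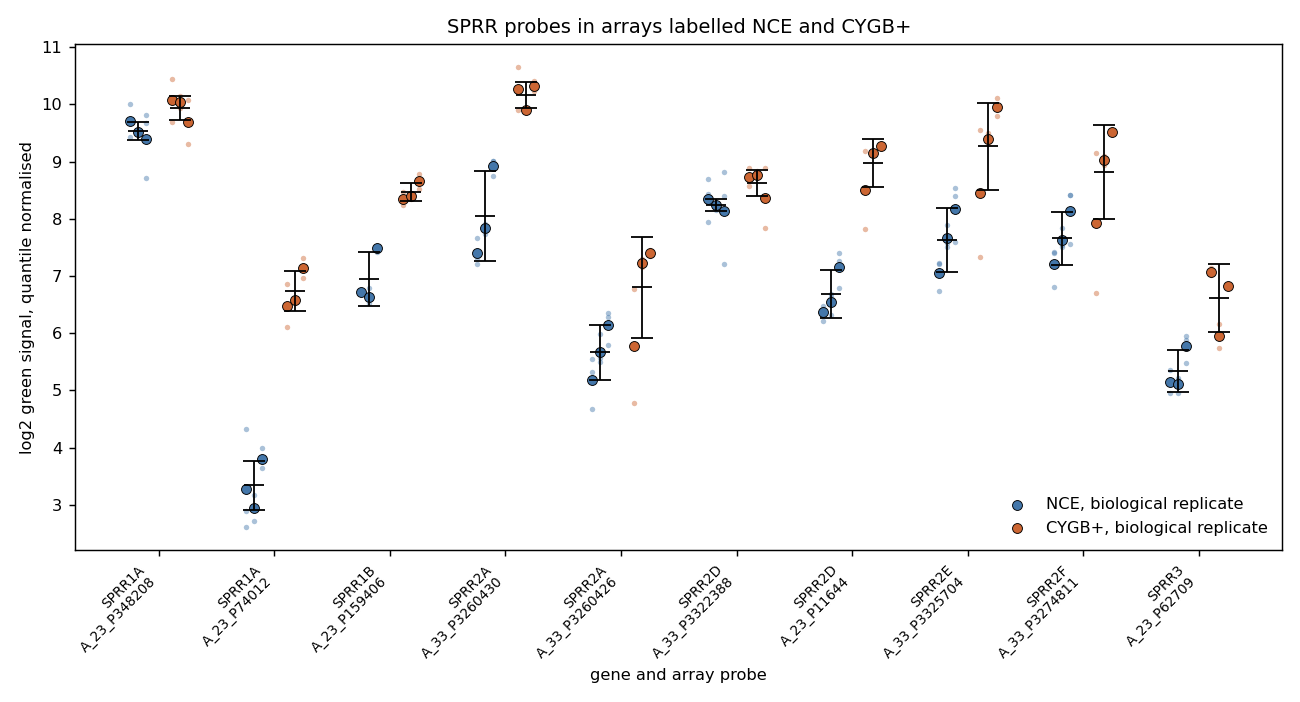
Log2 green signal of the 10 tested SPRR probes, for arrays labelled NCE (blue) and CYGB+ (orange). Large points are biological replicates (1 to 3 from left to right in each group), small points single arrays, and black bars the mean ± SD of 3 replicates; the groups are most clearly apart in SPRR1A probe A_23_P74012, at 2.95 to 3.80 against 6.48 to 7.13.

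The 5 promoters printed here belong to the neighbouring SPRR genes described next that have an entry and a tested probe, and are shown because all tested SPRR differences were above 0. SPRR2F and SPRR3, and the brighter SPRR1A probe, did not pass the test. Each is the 250 bases before the transcription start, 5′ to 3′ on the strand of the gene, from RefSeq (GRCh38.p14). Capitals mark each copy of TGANTCA, the palindromic motif bound by AP-1 factors, searched on both strands, which overlapped no other marked motif.
SPRR1A, chr1:152983831-152984080 (+ strand): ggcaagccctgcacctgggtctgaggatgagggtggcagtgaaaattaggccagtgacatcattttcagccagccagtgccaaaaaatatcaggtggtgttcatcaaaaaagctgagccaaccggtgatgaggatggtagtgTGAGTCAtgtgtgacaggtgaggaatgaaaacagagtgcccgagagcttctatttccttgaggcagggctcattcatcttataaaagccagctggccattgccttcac
SPRR1B, chr1:153030953-153031202 (+ strand): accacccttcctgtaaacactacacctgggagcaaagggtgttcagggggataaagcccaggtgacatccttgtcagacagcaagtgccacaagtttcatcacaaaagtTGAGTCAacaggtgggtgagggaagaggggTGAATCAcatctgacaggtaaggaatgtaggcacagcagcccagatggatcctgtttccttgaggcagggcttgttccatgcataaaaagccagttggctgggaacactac
SPRR2A, chr1:153057513-153057762 (- strand): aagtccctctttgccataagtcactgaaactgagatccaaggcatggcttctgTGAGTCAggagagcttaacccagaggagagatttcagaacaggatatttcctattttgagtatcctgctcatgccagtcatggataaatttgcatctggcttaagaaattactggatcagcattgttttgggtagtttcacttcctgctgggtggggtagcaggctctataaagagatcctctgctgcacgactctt
SPRR2F, chr1:153113517-153113766 (- strand): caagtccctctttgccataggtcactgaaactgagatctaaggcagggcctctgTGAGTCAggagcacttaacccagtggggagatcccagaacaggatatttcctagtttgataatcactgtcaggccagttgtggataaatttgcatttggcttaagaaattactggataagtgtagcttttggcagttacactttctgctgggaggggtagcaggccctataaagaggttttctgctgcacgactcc
SPRR3, chr1:153001499-153001748 (+ strand): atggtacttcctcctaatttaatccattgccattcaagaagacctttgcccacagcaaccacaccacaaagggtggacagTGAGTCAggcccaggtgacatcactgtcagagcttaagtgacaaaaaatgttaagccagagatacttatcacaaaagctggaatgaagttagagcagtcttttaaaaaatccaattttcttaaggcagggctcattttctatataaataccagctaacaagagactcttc
All 5 promoters held the motif, with 2 copies in SPRR1B and 1 in each of the others. In the plus-strand genes SPRR1A and SPRR1B the copy nearest to the start began 108 and 111 bases before it. In SPRR2A and SPRR2F it began 197 and 196 bases before it. The 250 bases of SPRR2A and SPRR2F were 85.7% identical in a global alignment, and those of SPRR1A and SPRR1B 65.8%. TGANTCA was held by 6.57% of all 35116 promoter entries of the same length. Counted by gene, with a copy in any of its entries, it was held by 6 of the 8 SPRR genes with an entry, 9 of 13 other envelope genes and 3 of 12 S100 genes. The 33 member genes had 38 entries, so the units of these shares differ. The motif was also present before genes that were not tested because their probes were dim, such as FLG, CRNN and SPRR2G, and before IVL, whose probe was not called. SPRR2B and SPRR4 had no copy in this window. The octamer ATTTGCAT, in either direction, was found in 3 of the 8 SPRR genes, SPRR2A, SPRR2B and SPRR2F, and in 1.63% of all promoters. A match to these letters is a description of the sequence only. PPL, EVPL, TGM1, CSTA, CST6, SPRR2D and SPRR2E are not among the 33 members with an entry.

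SPRR1A had the largest difference of any member, at 1 of its 2 probes. Probe A_23_P74012 read 3.27, 2.95 and 3.80 in the NCE replicates and 6.48, 6.58 and 7.13 in the CYGB+ replicates. It was well above background on none of the 9 NCE arrays and on all 6 CYGB+ arrays. It thus entered the test only through the CYGB+ arrays, and the size of its difference is uncertain. Set against the dimmest signal of any probe above background on each NCE array, where that exceeded the probe's own, the level was 10.0-fold higher in CYGB+. That is not a lower bound, since SPRR4 read 4.96 on an NCE array without being above background. It also holds for the processed signal only. With normexp background correction and its offset the difference was 1.70-fold (0.76 on the log2 scale). The fitted difference was 3.39 ± 0.27 (SE; adjusted p = 0.002, limma). It was 3.87 with slide as a block and 3.84 within the second slide, again against NCE values at background. The second probe, A_23_P348208, was above background on all 15 arrays and read 9.71, 9.52 and 9.40 in NCE and 10.07, 10.05 and 9.69 in CYGB+. There the groups overlapped, and the difference was 0.39 ± 0.18 (SE; adjusted p = 0.21). The 2 probes of SPRR1A thus gave different answers, and which transcript each detects was not known here.

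SPRR1B, the closest relative of SPRR1A, rose at its only probe. It read 6.72, 6.63 and 7.48 in the NCE replicates and 8.35, 8.40 and 8.65 in the CYGB+ replicates, 2.87-fold higher (log2 difference 1.52 ± 0.25 SE, adjusted p = 0.016). All 6 CYGB+ arrays lay above all 9 NCE arrays. The difference was 1.66 with slide as a block and 1.75 within the second slide. It passed the threshold without any one of NCE replicate 3, CYGB+ replicate 1 or CYGB+ replicate 2, but not without NCE replicate 1 (1.41, adjusted p = 0.058), NCE replicate 2 (1.37, 0.070) or CYGB+ replicate 3 (1.43, 0.051).

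Among the SPRR2 genes, 1 probe each of SPRR2A and SPRR2D was called. SPRR2A probe A_33_P3260430 read 7.40, 7.83 and 8.92 in NCE and 10.27, 9.90 and 10.32 in CYGB+, 4.32-fold higher (2.11 ± 0.37 SE, adjusted p = 0.019). NCE replicate 3 was the highest of its group and CYGB+ still lay above it on every array. The difference was larger with slide as a block (2.60) and within the second slide (2.84). The only NCE array on that slide came from NCE replicate 1, the lowest of its group for this probe. Without NCE replicate 1 (1.78, adjusted p = 0.051), NCE replicate 2 (2.00, 0.083) or CYGB+ replicate 3 (2.03, 0.058) it did not pass. The second SPRR2A probe, A_33_P3260426, read 5.18, 5.68 and 6.14 against 5.78, 7.22 and 7.40. Its groups overlapped, because CYGB+ replicate 1 was low, and the difference of 1.13 ± 0.45 (SE) had an adjusted p of 0.16. With the replicate block that p was 0.029, and with CYGB+ replicate 1 from its other array alone the difference was 1.46 and passed (adjusted p = 0.015).

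SPRR2D probe A_23_P11644 read 6.36, 6.54 and 7.15 in NCE and 8.50, 9.15 and 9.27 in CYGB+, 4.88-fold higher (2.29 ± 0.28 SE, adjusted p = 0.007). The groups did not overlap on any array, although the array that stood apart was the lowest of its group, at 7.81. The difference was 2.37 with slide as a block, 2.50 within the second slide and 2.51 without that array. It passed without any single one of the 6 biological replicates. It did not pass by the methods' t-test (adjusted p = 0.060), and with normexp background correction the difference was 1.41, or 2.67-fold. The brighter SPRR2D probe, A_33_P3322388, read 8.35, 8.24 and 8.14 against 8.73, 8.77 and 8.37. Its replicates did not overlap, as for 16.0% of all tested probes in this direction, but its difference was only 0.38 ± 0.17 (SE; adjusted p = 0.21), the smallest of the SPRR probes.

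SPRR2E, SPRR2F and SPRR3 were not called in the main comparison but were with the replicate number as a block, where 8 of the 10 SPRR probes were higher beside 5.50% of all probes called higher. SPRR2E read 7.05, 7.66 and 8.18 in NCE and 8.44, 9.40 and 9.95 in CYGB+ (1.64 ± 0.43 SE, adjusted p = 0.059, and 0.007 with the block). In both groups replicate 3 was the highest and replicate 1 the lowest, and the highest NCE replicate lay below the lowest CYGB+ replicate. SPRR2F read 7.21, 7.63 and 8.13 against 7.92, 9.02 and 9.52 (1.16 ± 0.42 SE, adjusted p = 0.13, and 0.022 with the block). SPRR3, a precursor typical of oral and oesophageal epithelium, read 5.15, 5.12 and 5.77 against 7.07, 5.95 and 6.82 (1.27 ± 0.33 SE, adjusted p = 0.057, and 0.028 with the block). It was above background on 7 of 9 NCE arrays and on all 6 CYGB+ arrays. Over the 10 SPRR probes NCE replicate 3 was the highest NCE replicate in 8, and CYGB+ replicate 3 the highest CYGB+ replicate in 7. With CYGB+ replicate 1 from its other array alone, 8 of the 10 SPRR probes passed without the block, beside 16.6% of all probes called in that setting and 8.29% with all arrays.

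**Figure D3:**
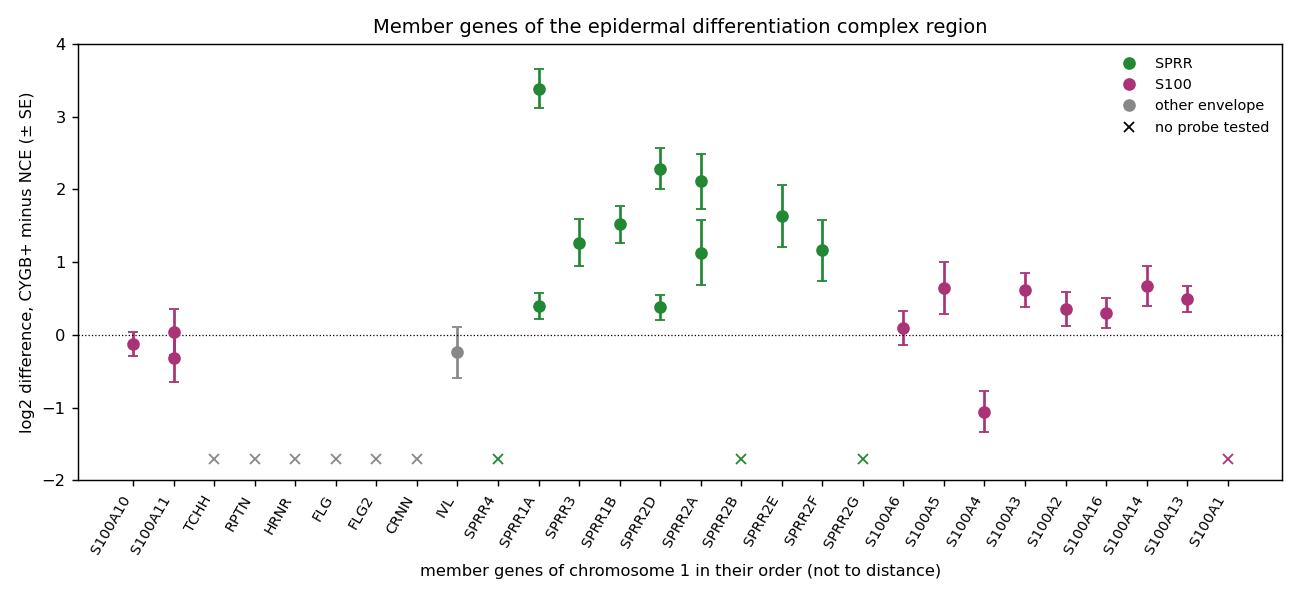
Log2 differences (CYGB+ minus NCE, ± SE) of the 28 members on chromosome 1, placed in gene order and not to distance, with SPRR genes in green, S100 genes in purple, other envelope genes in grey and crosses for genes with no tested probe. The tested SPRR genes lie side by side above 0, between IVL at -0.24 and S100A6 at 0.09, the nearest list members. Genes outside the list are not drawn.

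Among the list members, in gene order along the chromosome, the SPRR genes formed one block, from SPRR4 to SPRR2G. The nearest list members on either side were IVL, which encodes the envelope precursor involucrin, and S100A6, and neither was called. Genes outside the list were not placed in this order, among them CRCT1, S100A7 and S100A12, which were called higher (below). The order therefore does not show where the higher genes end. IVL read 8.32, 7.01 and 7.49 in NCE and 7.67, 7.49 and 6.94 in CYGB+, and the groups overlapped (-0.24 ± 0.35 SE, adjusted p = 0.70). The IVL difference was -0.77 with slide as a block (adjusted p = 0.52) and -1.03 within the second slide. The only NCE array there came from NCE replicate 1, the highest of its group for IVL.

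Of the 9 tested envelope genes outside the SPRR family, TGM1 was the only one called. TGM1 encodes the membrane-bound transglutaminase that cross-links envelope precursors in keratinocytes. Its probe read 6.26, 6.30 and 6.60 in NCE and 5.67, 5.54 and 5.81 in CYGB+, 1.64-fold lower (-0.71 ± 0.17 SE, adjusted p = 0.045), beside 4.05% of all probes called lower. The replicates of the groups did not overlap, as for 17.1% of all tested probes in this direction, but single arrays did. With the replicate block the adjusted p was 0.041, beside 5.73% of all probes called lower. The call did not hold with slide as a block (-1.02, adjusted p = 0.098), and was lost without any one of the 6 replicates, with differences from -0.78 to -0.61 and adjusted p from 0.068 to 0.17. Within the second slide the difference was -0.93.

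The scaffold genes of the envelope gave small differences. Periplakin (PPL, -0.20 ± 0.25 SE) and envoplakin (EVPL, -0.19 ± 0.19 SE) were both above background on all arrays, with overlapping groups and adjusted p of 0.65 and 0.55. Sciellin (SCEL), another envelope precursor, differed by -0.04 ± 0.32 (SE; adjusted p = 0.96). The genes of the cysteine protease inhibitors cystatin A (CSTA) and cystatin M/E (CST6) and of cornifelin (CNFN) lay higher in every CYGB+ replicate than in any NCE replicate, as did 16.0% of all tested probes, but were not called. Their differences were 0.51 ± 0.17 for CSTA, 0.63 ± 0.22 for CST6 and 0.85 ± 0.26 for CNFN (SE), with adjusted p of 0.100, 0.13 and 0.088. All of these 3 passed with CYGB+ replicate 1 from its other array alone, at adjusted p of 0.022, 0.024 and 0.039, a setting in which 16.6% of all probes were called. In the authors' processed values limma gave them 0.034, 0.025 and 0.048, where 9.61% of all probes were called. None of the 3 passed by the methods' t-test (adjusted p of 0.12, 0.23 and 0.20). Suprabasin (SBSN), a secreted product of suprabasal cells, had the largest difference of this group. It read 4.07, 4.66 and 5.54 in NCE and 5.52, 5.15 and 6.62 in CYGB+ and was above background on 4 of 9 and 6 of 6 arrays (1.01 ± 0.47 SE, adjusted p = 0.22). With the replicate block SBSN passed (adjusted p = 0.039).

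None of the 12 tested probes of the 11 S100 genes was called by limma, beside 8.29% of all probes. At an unadjusted p under 0.05 there were 4 of 12, beside 26.9% of all probes, and 2 by the methods' t-test, beside 23.7%, which called none after adjustment. Their differences ran from -1.06 to 0.68 with a median of 0.20. The lowest adjusted p was that of S100A4, a member linked to cell motility, which read 6.99, 6.86 and 6.81 in NCE and 5.34, 6.46 and 5.68 in CYGB+. All 6 CYGB+ arrays of S100A4 lay below all 9 NCE arrays, and the difference was -1.06 ± 0.28 (SE; adjusted p = 0.063), 2.08-fold lower. With the replicate block S100A4 passed narrowly (adjusted p = 0.049). In limma it also passed with normexp background correction (adjusted p = 0.048), where 10.8% of all probes were called. The authors' processed values gave 0.022, where 9.61% were called. By the methods' t-test S100A4 did not pass (adjusted p = 0.18). With slide as a block its difference was -1.01 (adjusted p = 0.25), within the second slide -1.06, and with CYGB+ replicate 1 from its other array alone -0.91 (adjusted p = 0.032).

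**Figure D4:**
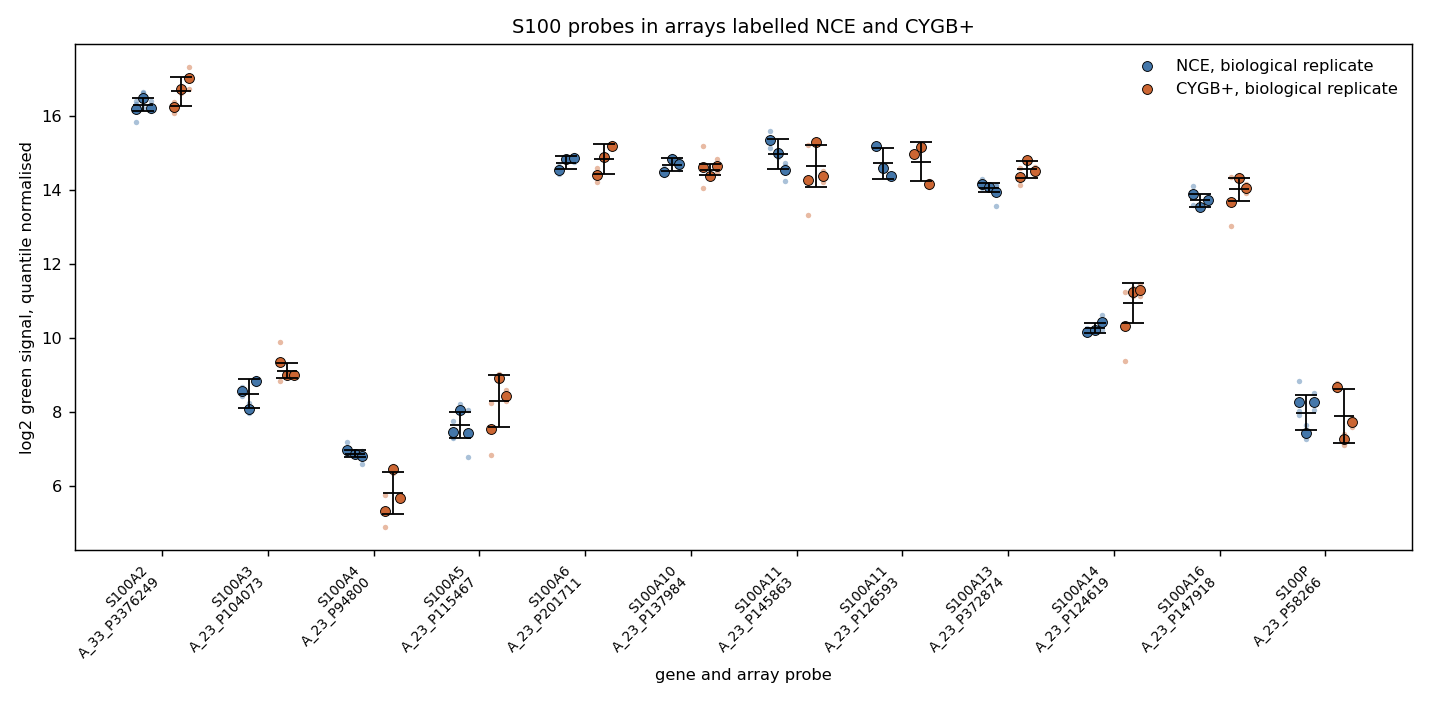
Log2 green signal of the 12 tested S100 probes, with the same symbols as in the plot of SPRR levels. In S100A4 the CYGB+ replicates, at 5.34 to 6.46, lie below the NCE replicates, at 6.81 to 6.99, while most other probes overlap.

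The highest S100 difference was that of S100A14, an epithelial member. It read 10.16, 10.23 and 10.43 in NCE and 10.33, 11.25 and 11.29 in CYGB+ (0.68 ± 0.28 SE, adjusted p = 0.17). The low CYGB+ replicate was the one with the array that stood apart, and from its other array alone the difference was 0.99 and passed (adjusted p = 0.005). S100A5 (0.64 ± 0.36 SE) and S100A13 (0.50 ± 0.18 SE) also passed in that setting, at adjusted p of 0.049 and 0.032, against 0.30 and 0.13 with all arrays. S100A3 and S100A13, 2 of the 12 probes, were higher in each CYGB+ replicate than in any NCE replicate, a share near the 16.0% of all probes. S100A3 differed by 0.62 ± 0.23 (SE; adjusted p = 0.14), and by 0.44 from the other array alone. The brightly read S100A2, S100A6, S100A10 and S100A16 differed by 0.36, 0.09, -0.13 and 0.30, with adjusted p from 0.36 to 0.83. S100A10 encodes the partner of annexin A2. The 2 probes of S100A11 differed by -0.32 ± 0.32 and 0.04 ± 0.32 (SE), and S100P by -0.10 ± 0.39 (SE).

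**Figure D5:**
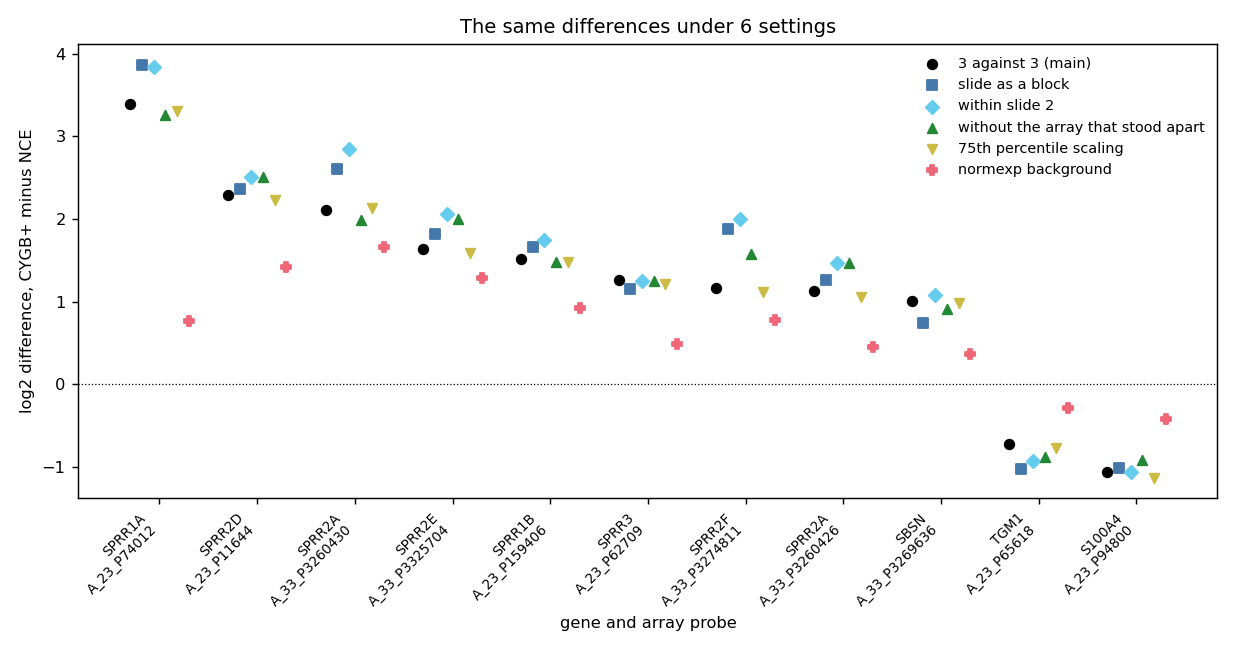
Log2 differences (CYGB+ minus NCE) of the 11 member probes called with or without the replicate block, each under 6 settings marked by symbol and colour. No probe crosses 0, while normexp background correction with its offset brings each difference nearer to 0, as in SPRR1A probe A_23_P74012 at 0.76 against 3.39.

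The size of the differences depended on the background correction and its offset, whose parts were not separated. An added offset by itself brings log2 differences of dim probes nearer to 0. With normexp and an offset of 50 the called SPRR probes differed by 0.76 (SPRR1A), 0.92 (SPRR1B), 1.66 (SPRR2A) and 1.41 (SPRR2D), each still at an adjusted p under 0.05. TGM1 differed by -0.29 in that setting and did not pass (adjusted p = 0.086).

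Related genes were taken from further lists, whose counts stand beside 8.29% of all probes called, 4.24% higher and 4.05% lower. A list of 35 symbols covered other genes of the epidermal differentiation complex and envelope. It held LOR and LORICRIN, names of the same gene, and KLF4, a regulator also counted below. Of these, 32 had a probe and 10 were tested, of which 2 were called, both higher. CRCT1, a gene of the same complex, read 8.91, 8.29 and 8.59 in NCE and 10.16, 10.86 and 10.89 in CYGB+ (2.04 ± 0.26 SE, adjusted p = 0.008). The late cornified envelope gene LCE3D read 3.04, 2.97 and 4.42 against 5.09, 6.46 and 7.02 (2.71 ± 0.56 SE, adjusted p = 0.032). LCE3D was above background on 1 of 9 NCE arrays and 5 of 6 CYGB+ arrays, so its fitted difference rests largely on NCE values at background. It also reached the test largely through the CYGB+ arrays, where it was high. Without LCE3D, CRCT1 was the only gene of this list called. SPRR2C passed with the replicate block (1.05 ± 0.33 SE, adjusted p = 0.093, and 0.026 with the block). KRT10, a keratin of suprabasal epidermis, differed by 0.09 ± 0.18 (SE). The median over the 10 tested genes was 0.21.

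Of 10 further genes, S100 genes with the binding protein gene S100PBP among them, 5 were tested and 2 were called, both higher. S100A7, psoriasin, read 4.74, 5.13 and 5.31 in NCE and 8.57, 8.81 and 9.70 in CYGB+ (3.97 ± 0.31 SE, adjusted p = 0.002), with 5 of 9 NCE arrays and 6 of 6 CYGB+ arrays above background. S100A12 read 4.10, 4.95 and 4.48 against 6.20, 6.27 and 6.88 (1.94 ± 0.28 SE, adjusted p = 0.011). Its NCE values lay in a range where some probes were not above background, such as SPRR4 at 4.96 on an NCE array. The size of the S100A12 difference is therefore uncertain. S100A8 (1.97 ± 0.58 SE) and S100A9 (1.08 ± 0.34 SE), the subunits of calprotectin, had adjusted p of 0.082 and 0.092, and 0.008 and 0.027 with the replicate block.

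None of the 23 tested genes for envelope processing and barrier lipid enzymes was called by limma, among 35 listed symbols. CTSV and CTSL2 in that list name the same gene. Of the tested genes 9 had an unadjusted p under 0.05, or 7 by the methods' t-test, which also called none (26.9% and 23.7% of all probes). With the replicate block 1 of them passed, the lipid transporter ABCA12 (0.72 ± 0.23 SE, adjusted p = 0.099, and 0.046 with the block). Of 14 tested S100 partners and receptors, only PLAT, tissue plasminogen activator, was called (-1.39 ± 0.28 SE, adjusted p = 0.028). Of 28 tested regulators of keratinocyte differentiation, 2 were higher and 2 lower. Higher were PRDM1 (0.89 ± 0.21 SE, adjusted p = 0.045), a transcriptional repressor, and JUNB (0.85 ± 0.18 SE, adjusted p = 0.037), a subunit of AP-1. Lower were the grainyhead-like factor GRHL1 (-1.09 ± 0.17 SE, adjusted p = 0.014) and the zinc finger factor OVOL2 (-0.73 ± 0.14 SE, adjusted p = 0.026).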

How the data were processed

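Total RNA of the 6 biological replicates was hybridised to 15 Agilent SurePrint G3 Human 8x60K arrays. The deposited scanner files hold green-channel intensity that Agilent Feature Extraction 10.7.3.1 had background-subtracted and dye-normalised by linear and lowess steps against the red channel, per the file headers, with flags for spots well above background. Per the labels every sample was in Cy3, whereas the study's methods put control RNA in Cy5. The red channel was not used. The authors' own processed log2 values, deposited for 15040 probes, followed the green channel and served as an alternative. Their scale, centring and direction are not stated.

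Outlier-flagged spots were left out, log2 intensities of 58717 non-control spots were quantile normalised, as in the study's methods, spots were averaged per probe and arrays per replicate, and limma 3.58.1 (R 4.3.3) compared 3 against 3 replicates. Accessions gave 25422 of 42405 probes a RefSeq symbol. A gene stood by its probe with the highest mean over all arrays. The scanner files used here have no mean signal, so the normexp alternative (offset 50) used the median signal and background. The fit was tested on simulated data, with 50 probes changed at each size. It recovered 1 of them at 1.5-fold, 10 at 2-fold, 37 at 4-fold and 43 at 8-fold. Far fewer probes were changed there than the 1852 called in the data, which makes the Benjamini-Hochberg threshold stricter. These recoveries are therefore not the sensitivity of the reported fit. A probe that was not called may still differ. The 3 biological replicates per group limit the precision. The p-values measure the spread between these replicates, which came from separate RNA extractions but may share a culture.

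Same-numbered NCE and CYGB+ replicates had correlated deviations from their group means over probes (r = 0.22, 0.28 and 0.31). The replicate number was therefore used as a block in an alternative fit, while the main comparison was not paired. Some other pairs were also positive. NCE replicate 2 with CYGB+ replicate 3 (0.225) exceeded NCE replicate 1 with CYGB+ replicate 1 (0.218), so this pairing is uncertain, and calls made only with the block rest on it. Members and lists were chosen with earlier results of these data known. Members called at 1.5-fold or more, members above background on every CYGB+ array and no NCE array, and the extremes of each family are given with every replicate's value. From other lists up to 4 called genes with the largest differences are named, and KRT10, SPRR2C, S100A8, S100A9 and ABCA12 were named after their values were seen. Other settings were 75th percentile scaling, other filters on dim probes, all 15 arrays with replicate as a random block, slide as a block, the second slide alone, the replicate block, the methods' t-test and leaving out each replicate.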

Additional observations from a re-analysis of the deposited data

Results flagged for a closer look

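Over single arrays of each group, 13 of 62 probe-and-group sets held an array far from the others. Chance flags about 1 in 20 sets of independent arrays. Here the arrays are repeats of the same replicates and the sets share them, so that rate does not apply. Most of the flagged arrays were the first array of CYGB+ replicate 1, the array that stood apart. It was the lowest of its group for SPRR2A probe A_33_P3260426 (4.79, next 6.77), SPRR2D probe A_23_P11644 (7.81, next 9.13), SPRR2E (7.34, next 9.31) and SPRR2F (6.69, next 8.95). The same array was the lowest for S100A5 (6.84), S100A14 (9.40) and S100A16 (13.02), and the highest for S100A3 (9.90, next 9.05). Its median green signal before normalisation was 33.3, against 42.3 to 71.1 on the other arrays. The second array of NCE replicate 3 was the lowest of its group for CSTA (10.83), CST6 (14.98), SPRR1A probe A_23_P348208 (8.71) and S100A13 (13.56). The second array of CYGB+ replicate 3 was the lowest for SPRR2D probe A_33_P3322388 (7.85, next 8.57). The part of array quality in these values was not tested.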

How the results depend on the processing

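The main setting called 3 of 27 member genes, with 1 probe each, and 1852 of 22328 probes. The member count was 5 with normexp background correction, 5 of 25 genes with probes above background on all 15 arrays, 5 of 17 genes in the authors' processed values, 5 with any probe of a gene, 8 with the replicate block, 11 with all 15 arrays in the fit, and 13 with CYGB+ replicate 1 from its other array alone. It was 1 of 40 with no filter on dim probes, 0 within the second slide (where limma gave 9 member probes an unadjusted p under 0.05) and 0 by the methods' t-test after Benjamini-Hochberg (679 of all probes, 5294 unadjusted, of which 11 were member probes). Leaving out a replicate gave 0 to 5 member genes and 374 to 1652 probes. Over all probes the count was 1232 with no filter, 4819 with 15 arrays, 659 with slide as a block, 20 within the second slide and 3717 with the other array alone. Within the second slide and by the t-test, 1 member probe was called, SPRR1A probe A_23_P74012, which was at background on every NCE array. No called member probe changed direction under any of these settings that measured it. The cause of these changes was not tested. Of the settings for single member probes, 445 stayed on their side of the threshold, 41 passed it newly and 24 no longer passed. The replicate block (pairing) gave 8 member genes and changed calls only as given in the report. Signal near background limits the SPRR1A, SBSN, LCE3D, S100A7 and S100A12 values, and 13 of the 40 genes could not be compared.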
